A study of Mus musculus with 19 samples.

Results

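Livers of 5 mice given 6.25 mg/kg dibenz[a,h]anthracene (DB[a,h]A) were compared with livers of 5 mice given 0 mg/kg, taken 3 days after exposure. All of these animals were 10-week-old males of the transgenic mouse strain 40.6, so any property of the transgene was shared by treated and control mice. The route, the vehicle, the transgene and the hour of the day at which livers were taken are not given in the sources used here, and the labels give 1 span of exposure dates for all animals rather than a day for each. The arrays were chosen by their dose label and make up 10 of the 19 arrays of the study, which also has 4 arrays at 12.5 mg/kg and 5 at 25 mg/kg. Each array carried RNA from part of the liver of 1 mouse in the red dye and, in the green dye, a common reference RNA made from 11 lines of mouse cells, with the dyes the same way round throughout. A value is therefore the log2 ratio of liver over reference for a probe, and a difference is the mean at 6.25 mg/kg minus the mean in controls. Differences are given with their standard error (SE) from a fit that took the slide as a block.

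DB[a,h]A is a polycyclic aromatic hydrocarbon. Compounds of this class bind the aryl hydrocarbon receptor (AhR), which pairs with Arnt and switches on detoxifying genes such as the Cyp1 enzymes. The enzymes can turn the compound into reactive products that bind DNA, and damaged DNA is known to activate p53. Liver also runs a strong circadian clock. In it Arntl (Bmal1) and Clock switch on the Per, Cry and Nr1d repressors and output factors such as Dbp, and the repressors in turn shut down Arntl, Clock and Nfil3.

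The arrays sat on 3 slides, and both groups were present on each. Slide 1 held 6.25 mg/kg replicate 5 with control replicates 4 and 5, slide 2 held treated replicates 3 and 4 with control replicates 2 and 3, and slide 3 held treated replicates 1 and 2 with control replicate 1. Replicate numbers follow the order of deposit and only name an array. Values of single arrays are listed in the order of slides 1 to 3, for controls replicates 4, 5, 2, 3 and 1, and for treated livers replicates 5, 3, 4, 1 and 2. Each array stands for 1 animal, so the tests measure the spread between animals together with that of labelling and scanning. Liver signal was well above background at 48.3% ± 4.81 of the spots in treated arrays (SD, n = 5) and at 47.0% ± 7.90 in controls (SD, n = 5). The mean difference within slides was 2.48 percentage points (two-sided exact permutation test within slides, p = 0.185, where 0.0185 is the smallest the design allows). Of 55681 probes, 29415 passed a filter on dim probes, and they represented 13812 named genes. The 19 kept markers of hepatocytes had a mean log2 ratio of 6.93 to 8.73 in control arrays and of 7.07 to 8.43 in treated arrays, so the labelled tissue carried its defining transcripts in both groups.

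No probe passed an adjusted p under 0.05 at 6.25 mg/kg in limma's moderated test (0 of 29415, 0%), and the smallest adjusted p was 0.0704. At an unadjusted p under 0.05 there were 3446 probes (11.7%), 1783 higher and 1663 lower in treated livers. At a looser adjusted p under 0.10 there were 31 probes (0.105%). Differences were small as a whole: 61 probes (0.207%) differed by more than 1 on the log2 scale. Over the 13812 genes, 51.4% were higher and 48.6% lower, the median difference was 0.01, and 942 (6.82%) were higher and 711 (5.15%) lower at an unadjusted p under 0.05. Without treated replicate 5, the only animal of its dose on slide 1, those counts were 589 and 515. Every treated array lay above every control array of its own slide for 639 genes (4.63%) and below for 547 (3.96%). Each gene below is read against these shares, and since none passed, values are given in place of calls.

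**Figure D1:**
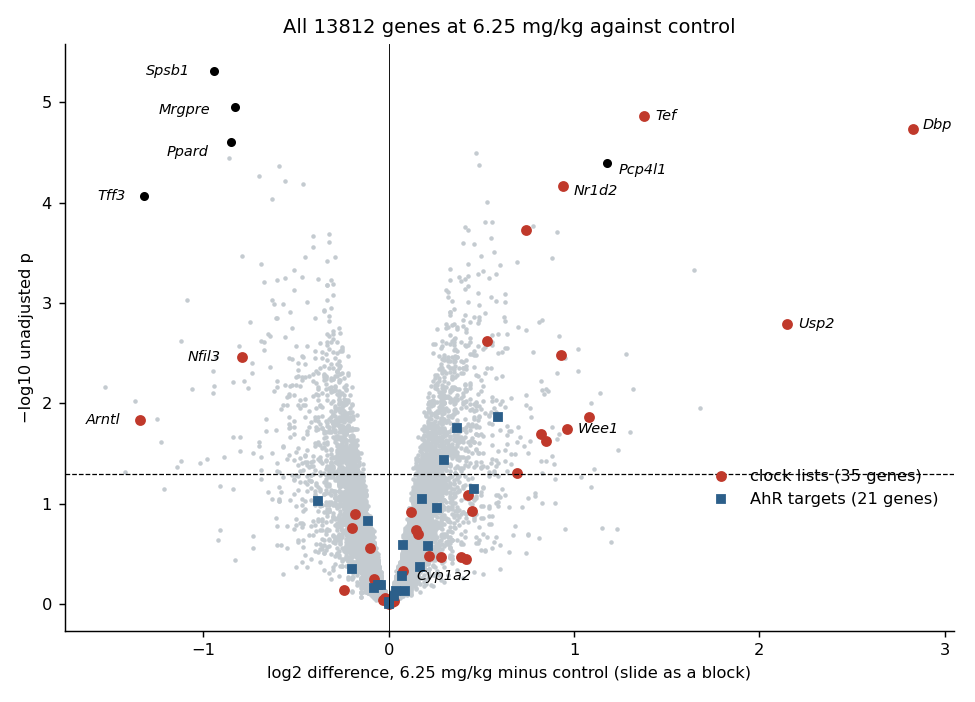
Log2 difference between 6.25 mg/kg and control (x axis) against the unadjusted p on a −log10 scale (y axis) for 13812 genes, 1 grey point per gene. Red circles are the 35 kept genes of the 3 clock lists, blue squares are the 21 kept AhR targets, black points are other named genes, and the dashed line marks an unadjusted p of 0.05. Dbp lies farthest to the right at 2.83, while Cyp1a2 lies near 0 at 0.07.

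Transcripts of the circadian clock held the largest and some of the best supported differences. Among 20 kept genes of clock output and turnover, 15 were higher and 5 lower. Of these, 6 were higher and 0 lower at an unadjusted p under 0.05 (30%, against 12% of all genes in either direction). The median difference was 0.14 against 0.01. As each of the 10 arrays was left out in turn, 5 or 6 were higher at that p.

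Dbp, a PAR bZIP transcription factor that drives daily rhythms of liver enzymes, stood at -2.51 and -1.08 on slide 1, -1.35 and -1.84 on slide 2 and -2.21 on slide 3 in controls. In treated livers it stood at 2.70 on slide 1, 1.31 and 0.20 on slide 2 and -0.82 and 1.15 on slide 3. All 5 treated arrays were above all 5 controls. The difference was 2.83 ± 0.49, a 7.12-fold higher ratio (95% confidence interval of the log2 difference 1.80 to 3.86, limma adjusted p = 0.0704). It was 4.5 within slide 1, 2.35 within slide 2 and 2.38 within slide 3, and a second Dbp probe gave 2.83 ± 0.49 as well. Without treated replicate 5 the difference was 2.37, with an adjusted p of 0.294, and without treated replicate 1 it was 3.25, with an adjusted p of 0.00504.

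Tef, a close relative of Dbp that binds the same D-box element, read 0.34, 0.68, -0.13, 0.09 and -0.48 in controls and 2.99, 1.31, 0.70, 0.43 and 0.92 in treated livers. Each treated array was above the controls of its own slide, although the lowest treated value, 0.43 on slide 3, lay below 1 control of slide 1 at 0.68. The difference was 1.38 ± 0.23, or 2.61-fold (adjusted p = 0.0704), and 1.02 without treated replicate 5. Hlf, the remaining member of that family, differed by 0.53 ± 0.15 (adjusted p = 0.228).

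Usp2, a deubiquitinase whose transcript cycles strongly and which acts on clock proteins, read -2.12, -2.02, -1.13, -1.36 and -1.46 in controls and 2.87, 0.97, -0.69, -0.86 and 0.26 in treated livers. The groups did not overlap, but the treated values spread from -0.86 to 2.87. The difference was 2.15 ± 0.58 (adjusted p = 0.211), with 4.94 within slide 1, 1.39 within slide 2 and 1.16 within slide 3, and 1.30 without treated replicate 5. Wee1, a kinase that holds back entry into mitosis, differed by 0.96 ± 0.37 (adjusted p = 0.325) and by 0.33 without that array. Por, the reductase that passes electrons to microsomal cytochromes P450, differed by 1.08 ± 0.39 (adjusted p = 0.304) and by 0.51 without it. Alas1, the first enzyme of heme synthesis, had no common direction, at 1.89 within slide 1, -0.43 within slide 2 and -2.06 within slide 3.

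The other kept members of that list lay nearer to 0. Nampt, which makes a precursor of NAD, differed by 0.45 ± 0.27, Tspan4 by 0.43 ± 0.23 and Noct, a deadenylase, by 0.39 ± 0.40. Components that act mainly on clock proteins rather than by cycling themselves had differences between -0.10 and 0.16: Csnk1d -0.02, Csnk1e -0.10, Fbxl21 -0.01, Fbxw11 0.12 and Btrc 0.16. Lpin1 differed by -0.03, Leo1 by 0.03, Tfrc by 0.02 and Tsc22d3 by 0.00.

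Among 10 kept clock repressors 8 were higher and 2 lower, with a median difference of 0.72. At an unadjusted p under 0.05, 6 were higher and 1 lower (70%, against 12% of all genes). The 6 include Per3 and Ciart, above background on 0 and 1 control arrays and each on 4 treated arrays. Per3 thus passed the filter only through treated arrays. Without treated replicate 5 there were 3 higher and 1 lower at that p, and the median was 0.51. Nr1d2 (Rev-erb beta), which represses Arntl, read -0.22, 0.34, -0.04, 0.64 and 0.20 in controls and 1.35, 1.29, 0.85, 1.21 and 1.23 in treated livers. It separated the groups on all arrays and its difference was 0.94 ± 0.18 (1.91-fold, adjusted p = 0.0771). Within slides it was 1.28, 0.77 and 1.02, and without treated replicate 5 it was 0.83.

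Cry2, a partner of the Per proteins, read 0.69, 0.90, 0.62, 0.84 and 0.17 in controls and 1.94, 1.28, 0.78, 1.0 and 1.58 in treated livers, with overlap on slide 2. Its difference was 0.74 ± 0.16 (adjusted p = 0.117). Per3 was not well above background on any control array and was on 4 treated arrays. Its control level is therefore only a bound, and the measured difference was 0.93 ± 0.27 (adjusted p = 0.231). Most of that came from treated replicate 5, at 2.27, since the other treated arrays read 0.05, -0.29, -0.51 and 0.38 against controls between -0.58 and -0.22, and the difference without it was 0.46. Per2 differed by 0.85 ± 0.34 and by 0.47 without that array, Per1 by 0.69 ± 0.33, and Ciart, which also represses Arntl and Clock, by 0.82 ± 0.32. Ciart was well above background on only 1 control array and on 4 treated arrays, and control replicate 3 gave no value, so its control level is uncertain. Bhlhe40 differed by 0.28 ± 0.29, Bhlhe41 by -0.08 ± 0.14 and Nr1d1 by 0.42 ± 0.44, with Nr1d1 at -0.60 within slide 1. Cry1 did not pass the filter on dim probes.

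Nfil3, the repressor that competes with Dbp and Tef for D-box elements, was lower. It read 2.05, 1.54, 1.46, 0.98 and 1.68 in controls and 1.06, 0.09, 0.23, 1.16 and 0.95 in treated livers, below the controls of its own slide on each array. The difference was -0.79 ± 0.24 (adjusted p = 0.231), and -0.84 without treated replicate 5. Arntl, which drives the loop, was lower too, from 1.44, 0.98, 1.32, 1.14 and 1.5 in controls to -2.25, -0.34, 0.57, 1.38 and 1.03 in treated livers. Its difference of -1.34 ± 0.50 (adjusted p = 0.311) was very uneven: -3.46 within slide 1, -1.12 within slide 2 and -0.30 within slide 3, and -0.69 without treated replicate 5. Treated values were below the controls of their slide on each array, narrowly so on slide 3. Its partner Clock differed by -0.20 ± 0.14. Rora and Rorb, nuclear receptors that act on Arntl, differed by 0.15 ± 0.11 and -0.18 ± 0.11. Npas2, which can stand in for Clock, did not pass the filter.

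**Figure D2:**
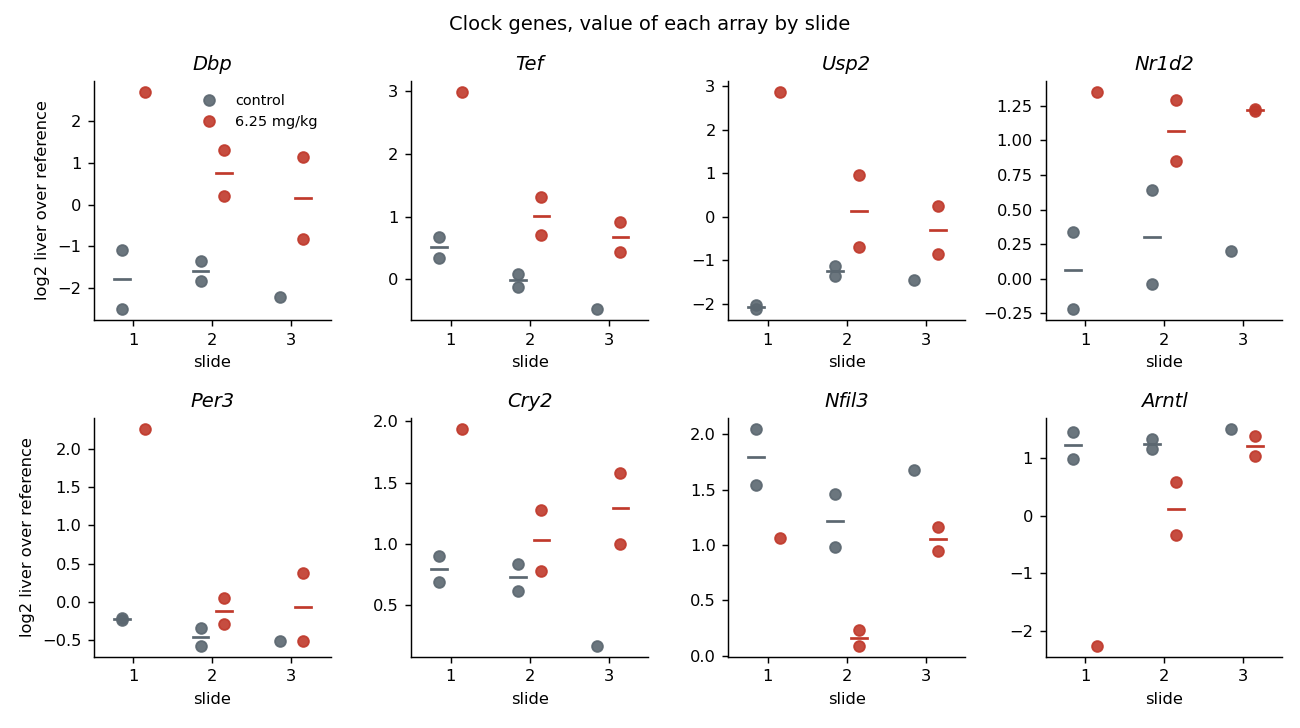
Log2 ratio of liver over reference (y axis) on each array for 8 clock genes, by slide (x axis). Grey points are control livers, red points are livers at 6.25 mg/kg, and short lines are means where a slide held more than 1 array of a group. The single treated array of slide 1 holds the highest Dbp value, at 2.70, and the lowest Arntl value, at -2.25.

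Promoter sequence of the clock genes was set beside these values, because their members share known regulatory elements. The 250 bases before the annotated start were taken from RefSeq on GRCm38.p6 for 44 starts of 30 of the 37 genes in the clock lists. They were searched on both strands for CACGTG (the E-box bound by Arntl and Clock), TTANGTAA (the D-box bound by Dbp, Tef, Hlf and Nfil3) and AGGTCA (the core site of the Nr1d and Ror receptors), and none of the matches printed below overlap. CACGTG is the same on both strands. These starts are shown to let the higher genes be compared, 5′ to 3′ on the gene's strand, with matches in capitals.
Dbp, chr7:45704997-45705246, plus strand: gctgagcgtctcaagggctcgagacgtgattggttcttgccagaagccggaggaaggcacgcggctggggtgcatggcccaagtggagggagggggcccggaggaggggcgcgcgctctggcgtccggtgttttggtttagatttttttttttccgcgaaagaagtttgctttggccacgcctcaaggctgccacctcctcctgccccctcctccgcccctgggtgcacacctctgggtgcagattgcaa
Tef, chr15:81802423-81802672, plus strand: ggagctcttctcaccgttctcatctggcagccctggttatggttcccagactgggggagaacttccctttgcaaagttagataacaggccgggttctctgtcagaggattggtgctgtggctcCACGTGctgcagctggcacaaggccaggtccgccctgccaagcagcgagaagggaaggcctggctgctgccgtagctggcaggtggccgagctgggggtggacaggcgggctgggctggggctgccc
Nr1d2, chr14:18239107-18239356, minus strand: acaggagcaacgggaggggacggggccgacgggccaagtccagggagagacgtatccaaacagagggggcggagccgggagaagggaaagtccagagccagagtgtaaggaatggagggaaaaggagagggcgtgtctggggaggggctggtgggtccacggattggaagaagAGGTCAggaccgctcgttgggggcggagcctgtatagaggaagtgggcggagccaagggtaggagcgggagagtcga
Per3, chr4:151044666-151044915, minus strand: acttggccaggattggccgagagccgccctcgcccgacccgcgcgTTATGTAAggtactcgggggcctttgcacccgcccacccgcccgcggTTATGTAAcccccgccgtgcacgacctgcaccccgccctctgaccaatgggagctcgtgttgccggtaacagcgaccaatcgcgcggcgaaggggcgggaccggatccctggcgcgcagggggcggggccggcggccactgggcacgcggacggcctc
Ciart, chr3:95882229-95882478, minus strand: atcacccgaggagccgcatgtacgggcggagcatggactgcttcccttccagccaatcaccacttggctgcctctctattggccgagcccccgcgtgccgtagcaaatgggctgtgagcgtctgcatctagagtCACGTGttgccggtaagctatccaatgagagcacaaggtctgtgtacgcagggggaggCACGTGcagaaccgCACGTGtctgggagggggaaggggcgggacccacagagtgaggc

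The Tef window holds 1 E-box, 127 bases before the start, and the window of its second annotated start also holds 1, 138 bases before it. The Ciart window holds 3 E-boxes, at 116, 58 and 44 bases, and the Per3 window holds 2 D-boxes, at 205 and 158 bases. The Nr1d2 window holds AGGTCA 77 bases before the start. The Dbp window, of the gene with the largest difference, holds none of the 3 motifs, and neither do those of Usp2 and Cry2. E-boxes were present in 15.9% of the 44 clock windows and in 6.02% of 32851 windows of all genes, D-boxes in 4.55% and 2.06%, and AGGTCA in 15.9% and 14%. These are matches of letters in a short window and say nothing about binding.

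Values at 12.5 and 25 mg/kg rest on the same 5 controls, so they are not independent of those above and are only set beside them. Dbp differed by 3.65 at 12.5 mg/kg and by 3.83 at 25 mg/kg, Tef by 1.52 and 1.90, Usp2 by 2.72 and 3.81, and Nr1d2 by 1.06 and 1.28. Nfil3 differed by -1.28 and -1.40 and Arntl by -2.16 and -2.47. At 25 mg/kg each of these passed (limma adjusted p of 0.0026 for Dbp and Tef, 0.00878 for Usp2, 0.00578 for Nr1d2, 0.0151 for Nfil3 and 0.0291 for Arntl), in a comparison where 240 probes (0.816%) did and 14.6% had an unadjusted p under 0.05. At 12.5 mg/kg 2 probes passed (0.0068%), against 9.51% at an unadjusted p under 0.05, and Dbp's adjusted p there was 0.0257.

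Whether the lowest and highest doses differ was tested directly, on arrays that share no control. No probe passed (0 of 29415, 0%, smallest adjusted p 0.393), and 1733 (5.89%) had an unadjusted p under 0.05. Dbp was 1.0 ± 0.48 higher at 25 than at 6.25 mg/kg (unadjusted p = 0.0527), Usp2 1.66 ± 0.57 (unadjusted p = 0.00907), Tef 0.52 ± 0.23 (unadjusted p = 0.0374) and Nr1d2 0.35 ± 0.18 (unadjusted p = 0.0666). Nfil3 was -0.60 ± 0.23 and Arntl -1.13 ± 0.49 on the same scale (unadjusted p = 0.0177 and 0.0314). Without treated replicate 5, 1 probe passed between those doses. Between 12.5 and 6.25 mg/kg 1 probe passed (0.0034%), and 3431 (11.7%) had an unadjusted p under 0.05. The probe lies in an interval without a gene name on the array, chr10:39659425-39674200 (mm9), and was -0.82 at 12.5 relative to 6.25 mg/kg (adjusted p = 0.0292), with 0.18 at 6.25 and -0.64 at 12.5 mg/kg relative to control.

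**Figure D3:**
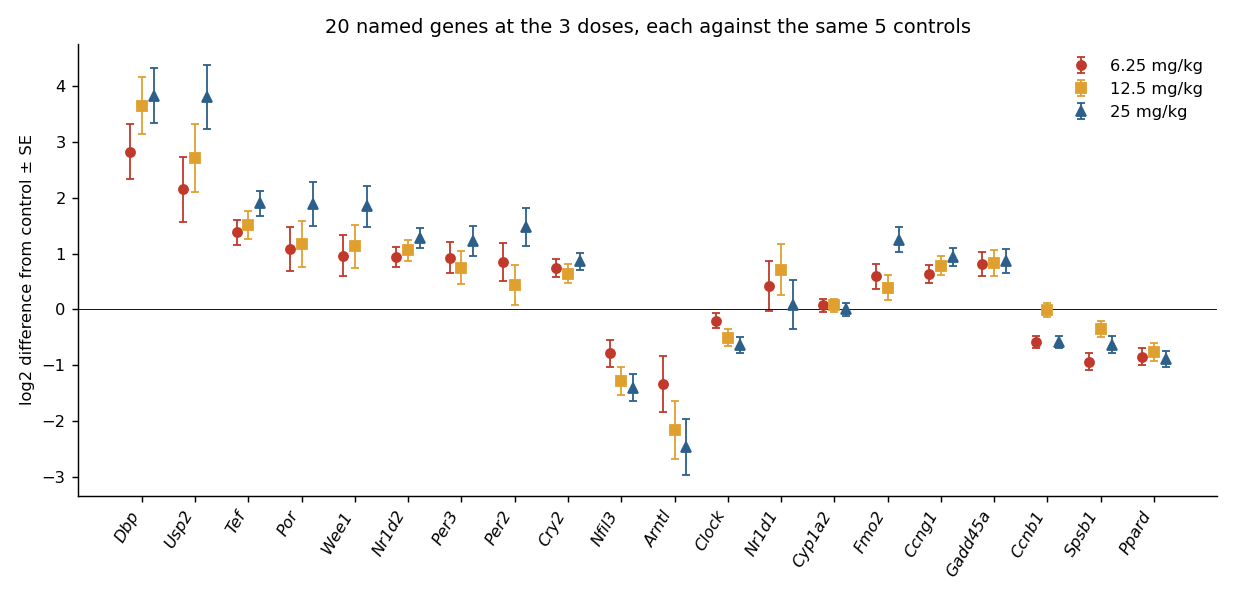
Log2 difference from control ± SE (y axis) of 20 named genes at 6.25 (red circles), 12.5 (yellow squares) and 25 mg/kg (blue triangles), each dose against the same 5 control arrays. Dbp stands at 2.83, 3.65 and 3.83, and Ccnb1 at -0.59, -0.01 and -0.59.

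Targets of the AhR were close to control. Of 24 on the array Cyp1a1, Ahrr and Serpinb2 did not pass the filter and 21 were kept, 13 of them higher and 8 lower, with a median difference of 0.07. At this dose 3 reached an unadjusted p under 0.05 (14.3%, against 12% of all genes), and without treated replicate 5 there were 0. Cyp1a2, the constitutive hepatic Cyp1 enzyme, read 6.12, 5.91, 4.99, 4.61 and 5.29 in controls and 6.14, 5.01, 4.83, 5.28 and 5.17 in treated livers. In both groups the values were highest on slide 1, and the groups lay together on each slide. The difference was 0.07 ± 0.11 (95% confidence interval -0.15 to 0.29, adjusted p = 0.841). Cyp1a1, the most inducible enzyme of the family, was not well above background on any of the 10 arrays, nor was Ahrr, the AhR repressor, so no level is given. Cyp1b1 was above background on 2 control and 4 treated arrays and differed by 0.00 ± 0.11.

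The AhR targets of smallest p were Fmo2, a flavin monooxygenase, at 0.59 ± 0.22 (adjusted p = 0.304), Tiparp, an ADP-ribosyltransferase that feeds back on the AhR, at 0.37 ± 0.14 (adjusted p = 0.324), and Nfe2l2 (Nrf2), the regulator of antioxidant genes, at 0.30 ± 0.13 (adjusted p = 0.388). Tiparp read -2.85, -2.80, -2.65, -2.70 and -2.74 in controls and -1.92, -2.62, -2.16, -2.51 and -2.65 in treated livers, each above the controls of its slide, but without treated replicate 5 the difference was 0.16. Fmo2 had differences of 1.0, 0.85 and 0 within the slides.

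Another 15 differed as follows. Conjugating enzymes gave 0.04 for Ugt1a6a, 0.18 for Ugt1a6b, -0.20 for Gsta1 and 0.09 for Gsta2, and Ugdh, which supplies glucuronic acid, gave -0.06. Oxidising and reducing enzymes gave 0.03 for Nqo1, -0.11 for Aldh3a1, -0.08 for Cyp2s1 and 0.17 for Xdh. The others were Gadd45b at 0.00, Tgfa at 0.08, Htatip2 at 0.21, Notum at -0.04, Lpar6 at 0.26 and Tnfaip2 at -0.38. None had an unadjusted p under 0.05. In the list written for the receptor's complex, Ahr differed by 0.35 ± 0.17 (adjusted p = 0.448). Ahr was -0.64 ± 0.17 at 25 relative to 6.25 mg/kg (unadjusted p = 0.0015). That list also held Hsp90b1, the Hsp90 form of the endoplasmic reticulum rather than of the receptor's complex, at -0.51 ± 0.23 (adjusted p = 0.389).

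Targets of p53, which stops the cycle or triggers repair and death after DNA damage, were higher in 27 of 34 kept and lower in 7, with a median difference of 0.12. The median was 0.01 within slide 1, 0 within slide 2 and 0.27 within slide 3. Of the 34, 21 were higher without control replicate 1 (median 0.04) or without treated replicate 1 (median 0.05), both on slide 3. At an unadjusted p under 0.05 were 6 higher and 1 lower (20.6%, against 12%), and without control replicate 1 these were 3 and 0. Ccng1 (cyclin G1), a feedback target, read -2.43, -2.50, -1.71, -1.85 and -1.72 in controls and -1.95, -1.42, -0.94, -0.47 and -1.20 in treated livers, above the controls of its slide on each array. The difference was 0.63 ± 0.16 (adjusted p = 0.187), with 0.52, 0.60 and 0.89 within slides. Gadd45a, which takes part in growth arrest and repair, read -3.20, -2.94, -2.08, -2.35 and -2.28 against -1.26, -1.67, -1.65, -2.24 and -1.64. Its difference was 0.81 ± 0.22 (adjusted p = 0.211), and 0.49 without treated replicate 5. Zmat3, an RNA-binding p53 target, differed by 0.25 ± 0.07 (adjusted p = 0.228). At 25 mg/kg, against the same controls, Ccng1 differed by 0.94 and Zmat3 by 0.41, and both passed (adjusted p = 0.0151 and 0.0164).

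Other p53 targets, named after their values were seen, were uneven. Cdkn1a (p21), the main arrest effector, read -2.75, -3.75, -3.07, -2.82 and -3.07 in controls and -3.70, -3.17, -2.64, -0.98 and -3.12 in treated livers, so 1 treated array, replicate 1 on slide 3, stood high. Of the other 4, 3 lay in the control range and replicate 4, at -2.64, was just above it. Mdm2, the ligase that degrades p53, differed by 0.14 ± 0.08.

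DNA repair genes were split between the directions. Nucleotide excision repair removes bulky adducts, and of its 29 kept genes 14 were higher and 15 lower, for a median of -0.01, and 2 were higher and 1 lower at an unadjusted p under 0.05 (10.3%). Those of smallest p were Gtf2h3, a subunit of TFIIH, at -0.32 ± 0.10, Ercc6, which acts in transcription-coupled repair, at 0.19 ± 0.09 and Rpa1, which binds single strands, at 0.16 ± 0.08. Of 27 genes of translesion synthesis and other repair, 12 lay above and 15 below control, the list median was -0.06, and 1 was higher and 4 lower at that p (18.5%). Among them Rev3l, the catalytic subunit of polymerase zeta, differed by 0.19 ± 0.07, and Parp1 by -0.21 ± 0.08. Of 34 Nrf2 targets 13 were higher and 21 lower, with 1 and 3 at an unadjusted p under 0.05 (11.8%). Mafg, a partner of Nrf2, differed by 0.33 ± 0.09 by its brightest probe and by 0.13 and 0.04 by its other probes. Gstp1, a glutathione transferase, differed by -0.44 ± 0.17 and Keap1, which holds Nrf2 back, by -0.26 ± 0.11.

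Outside these lists, the lower genes of smallest p kept their size when treated replicate 5 was left out, at -0.98 for Spsb1, -0.83 for Mrgpre and -0.89 for Ppard. Spsb1, an adaptor that brings substrates to a ubiquitin ligase, read 2.80, 2.56, 2.59, 2.66 and 2.30 in controls and 1.97, 1.38, 1.18, 1.42 and 1.87 in treated livers, with no overlap. Its difference was -0.94 ± 0.15 (1.91-fold lower, adjusted p = 0.0704). Mrgpre, an orphan receptor of the Mas-related family, read 3.06, 2.83, 2.80, 2.78 and 2.58 against 2.19, 1.57, 1.83, 1.56 and 2.46, for a difference of -0.83 ± 0.14 (adjusted p = 0.0704). Ppard, the nuclear receptor PPAR delta, which responds to fatty acids, read -0.87, -1.26, -0.07, -0.87 and -0.28 against -1.73, -1.52, -1.64, -1.04 and -1.02. Its difference was -0.85 ± 0.15 (adjusted p = 0.0704). Without treated replicate 2 all of these passed, at adjusted p of 0.00503 for Spsb1, 0.000758 for Mrgpre and 0.0476 for Ppard. None of them passed with any other single array left out.

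Ccnb1, cyclin B1 of mitotic entry, read -3.55, -3.88, -3.07, -3.32 and -3.36 in controls and -4.30, -3.74, -3.74, -4.18 and -4.0 in treated livers. Each treated value was below the controls of its slide, and the difference was -0.59 ± 0.11 (adjusted p = 0.0704), but a dimmer probe for the gene gave -0.11 ± 0.10. Adat3, a subunit of the enzyme that edits adenosine in tRNA, differed by -0.86 ± 0.16, Appl1, an endosomal adaptor in insulin and adiponectin signalling, by -0.56 ± 0.11, and Gpr3, a receptor that raises cyclic AMP, by -0.46 ± 0.09. Smo, the signal transducer of the Hedgehog pathway, differed by -0.63 ± 0.13, while its second probe gave -0.08 ± 0.08. Olfr608, an olfactory receptor, at -0.70 ± 0.13, was above background on 4 control and 3 treated arrays. Ppm1g, a protein phosphatase, differed by -0.32 ± 0.07 and Nrsn1 by -0.41 ± 0.09. Tff3, a trefoil peptide of mucosal surfaces, differed by -1.32 ± 0.26, with -2.47 in the liver channel alone and -1.24 in the reference channel alone. In the reference channel, which holds the same RNA on every array, 3.87% of probes had an unadjusted p under 0.05 and Tff3 was the 1 probe past an adjusted p (0.0034%).

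The higher genes of smallest p outside the clock were Frrs1, a ferric-chelate reductase, at 0.47 ± 0.09, and Pcp4l1, a small protein related to a calmodulin regulator, at 1.18 ± 0.22 (both adjusted p = 0.0704). Pcp4l1 read 3.21, 2.50, 1.94, 1.91 and 2.32 in controls and 4.37, 3.06, 2.75, 3.82 and 3.22 in treated livers, above the controls of its slide on each array. Hpgd, which inactivates prostaglandins, read 6.38, 6.14, 5.18, 4.87 and 4.96 against 7.26, 6.06, 5.45, 6.10 and 5.52, and also cleared its slide's controls each time. Its difference was 0.78 ± 0.16 (adjusted p = 0.117), and a second probe gave 0.84 ± 0.15. Tpp1, a lysosomal peptidase, differed by 0.41 ± 0.09 with 0.45, 0.44 and 0.43 within slides. The 2 probes of an interval without a gene name, chr6:129151512-129208737 (mm9), differed by 0.68 and 0.57 (adjusted p = 0.0704 and 0.075). The rest were Cyyr1 at 0.53 ± 0.11, Ccm2l at 0.56 ± 0.12, Sorbs3, an adhesion adaptor, at 0.52 ± 0.11 and Spats2l at 0.49 ± 0.09, the last above background on 2 control and 4 treated arrays. Cyyr1 differed by -0.08 at 12.5 and 0.11 at 25 mg/kg, and was -0.42 ± 0.10 at 25 against 6.25 mg/kg (unadjusted p = 0.000757).

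**Figure D4:**
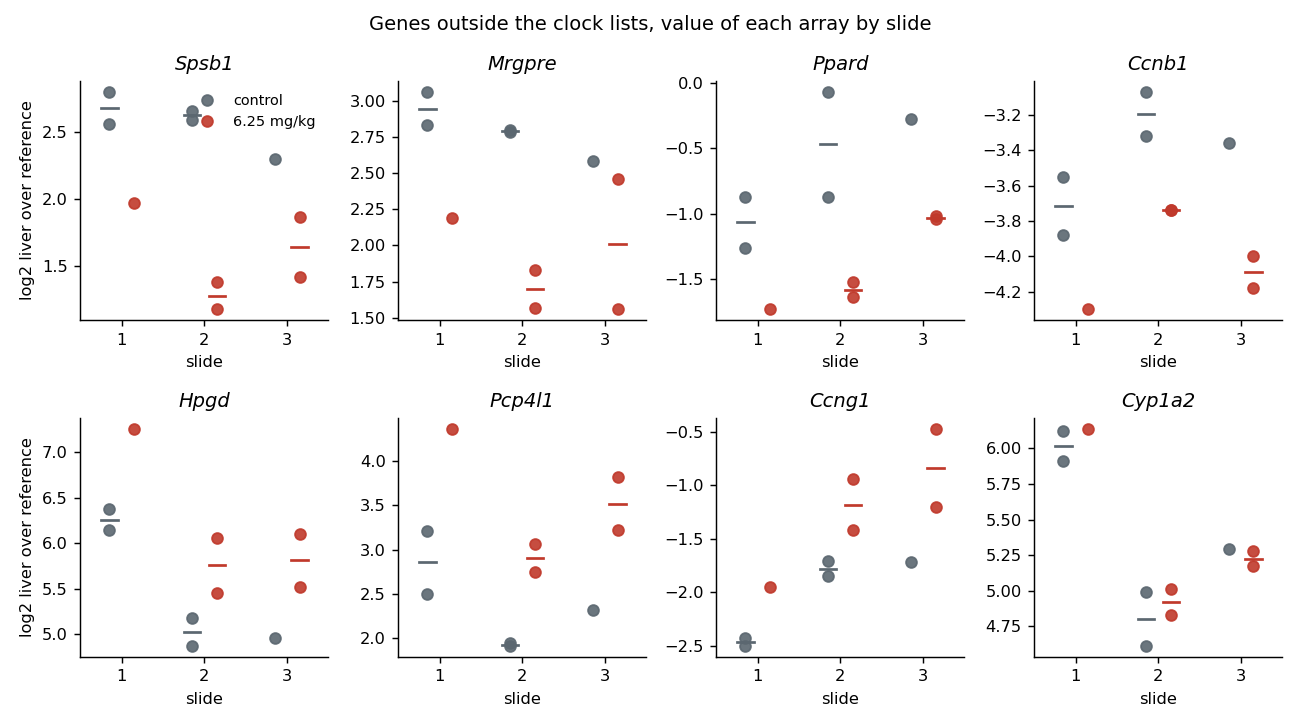
Log2 ratio of liver over reference (y axis) on each array for 8 genes outside the clock lists, by slide (x axis), with control livers in grey, livers at 6.25 mg/kg in red and short lines for means of more than 1 array. Spsb1 lies between 2.30 and 2.80 in controls and between 1.18 and 1.97 in treated livers, while the Cyp1a2 points of both groups lie together on each slide.

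Genes of the unfolded protein response, the chaperones and degradation factors of the endoplasmic reticulum, were lower as a list: 23 of 27 kept, with a median difference of -0.29. At an unadjusted p under 0.05, 1 was higher and 5 lower (22.2%). That count moved widely with single arrays, from 1 lower without control replicate 1, control replicate 2, treated replicate 3 or treated replicate 5 and 3 without treated replicate 1 to 7 without control replicate 5, 9 without control replicate 3 and 13 without treated replicate 2. The direction of the median was kept, between -0.46 and -0.16. Calr, a calcium-binding chaperone, read 1.08, 0.96, 1.48, 0.93 and 1.57 in controls and 0.34, 0.85, 0.86, 1.03 and 1.33 in treated livers, and differed by -0.38 ± 0.14 (adjusted p = 0.306). Sec61b, a subunit of the translocon, differed by -0.25 ± 0.09. Dnajb11, a co-chaperone, went the other way, at 0.92 ± 0.36, above the controls of its slide on each array. Hspa5 (BiP), the central chaperone, named after its values were seen, differed by -0.45 ± 0.44.

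In the integrated stress response, which Atf4 controls, 20 of 24 genes were lower, with 1 higher and 5 lower at an unadjusted p under 0.05 (25%) and a median of -0.11. As each array was left out in turn the number lower lay between 4 and 7. Mthfd2, of mitochondrial folate metabolism, differed by -0.31 ± 0.10, Fgf21, a hormone of fasting, by -0.76 ± 0.25, and Ddit3 (Chop) by -0.62 ± 0.21 (adjusted p = 0.256, 0.266 and 0.268). Fgf21 differed by -1.16, -0.15 and -1.61 within slides and was above background on 3 control and 2 treated arrays. Cholesterol synthesis genes were lower in 21 of 28 cases, with a median of -0.11. The 1 higher and 3 lower at an unadjusted p under 0.05 (14.3%) were near the 12% of all genes. Without treated replicate 5 the 28 genes split 14 to 14, with a median of 0. Insig2, which retains the sterol sensor, read 0.60 on that array and 2.45 to 2.92 on the other treated arrays, against 2.81 to 3.75 in controls.

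Klf transcription factors were higher in 10 of 15 kept, with a median of 0.19. Of the 15, 7 were higher and 0 lower at an unadjusted p under 0.05 (46.7%, against 12% of all genes). Klf13 differed by 0.53 ± 0.16, Klf15, a regulator of amino acid use in fasting, by 0.50 ± 0.16 and Klf6 by 0.31 ± 0.13 (adjusted p = 0.241, 0.259 and 0.349). That count was 2 without control replicate 2, 3 without control replicate 1, control replicate 5 or treated replicate 4, and 4 without treated replicate 3. Genes known to be higher in female liver, in these males, were higher in 16 of 21 kept, with a median of 0.28. Of the 21, 8 were higher and 1 lower at an unadjusted p under 0.05 (42.9%). In this list 2 genes were above background on no control array and passed the filter through treated arrays, so their control level is only a bound. The list median was 0 within slide 1, 0.44 within slide 2 and 0.27 within slide 3. It was 0.05 at 12.5 mg/kg and 0.32 at 25 mg/kg. Genes known to be higher in male liver were lower in 18 of 25, with a median of -0.07 and 0 higher and 2 lower at that p (8%). The count of 8 ranged from 4 to 10 as single arrays were left out, with 4 without treated replicate 4 or 5, 5 without treated replicates 1 or 3 or control replicates 1, 2 or 4, and 10 without treated replicate 2. Slc16a5, a monocarboxylate transporter, read 0.33, 0.21, 0.12, 0.00 and 0.20 in controls and 2.35, 1.0, 0.69, 0.36 and 0.67 in treated livers, for a difference of 0.95 ± 0.28 (adjusted p = 0.233), and 0.53 without treated replicate 5. A dimmer Slc16a5 probe, above background on 1 control and 1 treated array, gave 0.13 ± 0.13. Prom1 differed by 0.44 ± 0.15 and Cyp17a1, a steroid hydroxylase, by -0.35 ± 0.11.

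Markers of cell types and of liver zones were read in the same way, bearing in mind that in tissue RNA fewer cells of a type and less RNA per cell cannot be told apart. Pericentral hepatocyte genes were higher in 20 of 23, with a median of 0.12 and 4 higher and 1 lower at an unadjusted p under 0.05 (21.7%). With the fitted slide effects removed, the list's mean lay at 5.42 to 5.62 in controls and 5.64 to 5.76 in treated livers, without overlap. With those effects left in, the groups overlapped, at 4.57 to 5.59 in controls and 4.79 to 5.69 in treated livers. Lhpp, a phosphatase, read 1.84, 2.12, 2.06, 1.93 and 2.32 in controls and 2.69, 2.48, 2.24, 2.57 and 2.80 in treated livers and differed by 0.48 ± 0.11 (adjusted p = 0.156). Lgr5, a Wnt target at the central vein, differed by 0.74 ± 0.26, but by -0.70 at 12.5 and -0.39 at 25 mg/kg, and was -1.12 ± 0.25 at 25 relative to 6.25 mg/kg (unadjusted p = 0.000306). Without the slide block the list split 10 higher and 13 lower. Periportal genes were higher in 14 of 22, with a median of 0.13 and 5 higher and 1 lower at an unadjusted p under 0.05 (27.3%). Their slide-adjusted mean lay between 6.06 and 6.36 in controls and between 6.20 and 6.47 in treated livers. Ctsc differed by 0.50 ± 0.17 and Gls2, a glutaminase, by 0.29 ± 0.10.

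Endothelial markers were higher in 12 of 14, with a median of 0.23. Of the 14, 5 were higher and 1 lower at an unadjusted p under 0.05 (42.9%, against 12% of all genes). Stab1, a scavenger receptor of sinusoidal endothelium, differed by 0.28 ± 0.08 and Oit3 by 0.37 ± 0.13, while Kdr, the VEGF receptor, gave -0.37 ± 0.13 by its brightest probe and 0.25 ± 0.11 by another. Without the slide block 0 endothelial markers reached that p, and without treated or control replicate 3 there were 3 higher. All 7 kept cholangiocyte markers were lower, with a median of -0.18, and Epcam, Cftr and Cldn4 did not pass the filter. An unadjusted p under 0.05 was reached by 2 (28.6%), Sox9 at -0.45 ± 0.16 and Spp1 at -0.24 ± 0.09. The slide-adjusted mean of those 7 lay between -1.07 and -0.97 in controls and between -1.33 and -1.13 in treated livers. Of 36 cell cycle genes 28 were lower, with a median of -0.09. At an unadjusted p under 0.05, 1 was higher and 3 lower (11.1%, against 12% of all genes). The lower ones were Ccnb1 (above), Cdc20 at -0.49 ± 0.15 and Mcm7 at -0.28 ± 0.10, and the higher one, named after its values were seen, was Tk1, a thymidine kinase, at 0.38 ± 0.14.

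Kupffer cell markers split 8 higher to 9 lower with a median of -0.02 and 0 at an unadjusted p under 0.05, and the same count of 0 held for stellate cells (15 kept, median 0.05), neutrophils (5 kept, median 0.20) and erythroid cells (8 kept, median 0.02). The erythroid list mean, slide-adjusted, lay between 3.72 and 4.20 in controls and 3.90 and 4.27 in treated livers. Lymphocyte markers split 6 to 6, with 1 higher and 2 lower at that p (25%). Pancreas acinar markers kept 8 of 20, 3 higher and 5 lower, with 0 higher and 1 lower at that p (12.5%). Adipocyte markers kept 5 of 10, 4 higher and 1 lower, with 2 higher and 0 lower at that p (40%). As each array was left out in turn the number higher lay between 0 and 2, with 0 without treated replicate 4 or control replicate 3. Of the 2, Slc2a4 (Glut4) was above background on 0 control arrays and 3 treated arrays. Its measured difference was 1.11 ± 0.52 (adjusted p = 0.412). Treated replicate 4 read 3.22 and the other treated arrays -0.59 to 0.05, against -1.14 to -0.36 in controls, and without replicate 4 the difference was 0.48. The part of these cell types in the differences above was not tested.

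**Figure D5:**
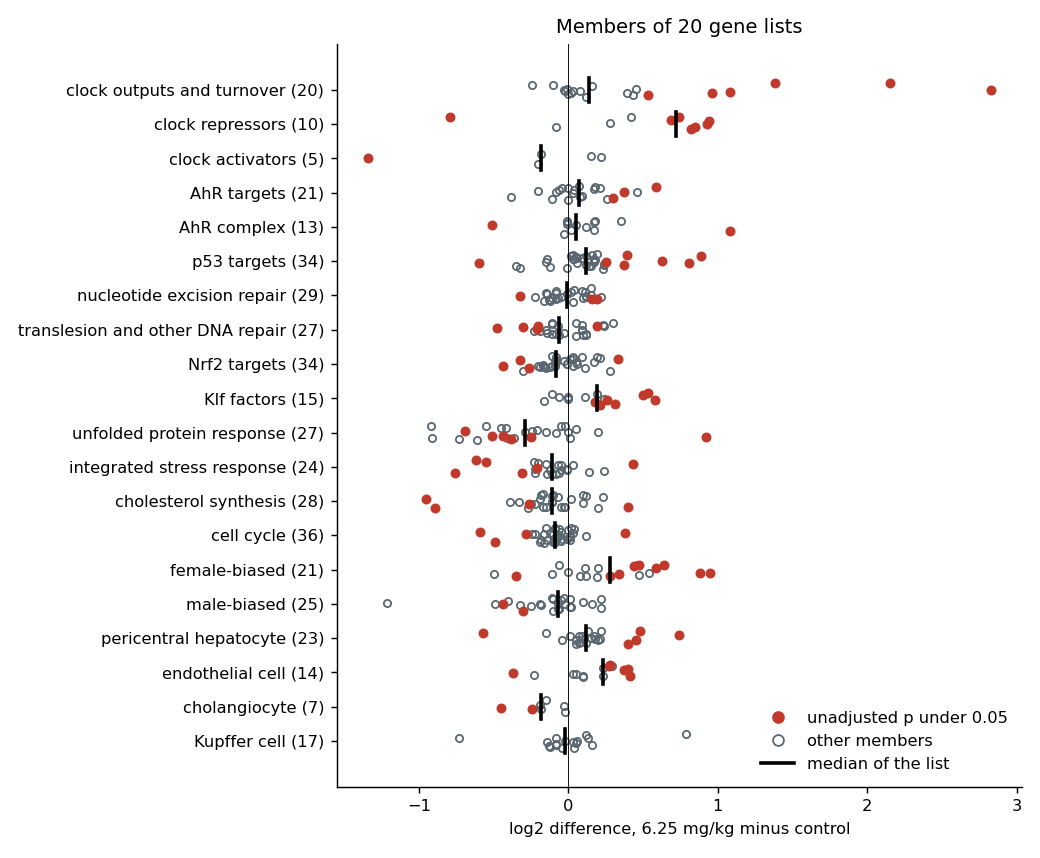
Log2 difference between 6.25 mg/kg and control (x axis) for the kept members of 20 gene lists (rows, with the number of members). Filled red points have an unadjusted p under 0.05, open grey points do not, and black bars are list medians. The clock repressors have the highest median, at 0.72, and the unfolded protein response genes the lowest, at -0.29.

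Metabolic and signalling lists not yet described held 0% to 25.9% of members at an unadjusted p under 0.05, against 12% of all genes. CAR and PXR targets were higher in 18 of 27 (median 0.13), PPAR alpha targets in 21 of 34 (median 0.06) and lipogenesis genes in 12 of 26 (median -0.04). Bile acid genes were higher in 15 of 24 (median 0.05) and glucose metabolism genes in 19 of 27 (median 0.11). Of the glucose metabolism genes 4 were higher and 3 lower at that p (25.9%), and their mean difference was 0.02. Acute phase genes were higher in 20 of 27 (median 0.08), immediate early genes in 15 of 20 (median 0.13), heat shock genes in 12 of 18 (median 0.07), interferon-stimulated genes in 9 of 29 (median -0.08) and glutathione S-transferases in 9 of 23 (median -0.06). Genes of glucuronidation and sulfation were higher in 16 of 22 (median 0.15) and microRNA processing genes in 12 of 19 (median 0.02). By smallest p these lists held Cyp4a31, a fatty acid hydroxylase, at 0.51 ± 0.12, Pck1, of glucose production, at 0.42 ± 0.15, Klb, the co-receptor for Fgf21, at 0.56 ± 0.19, Psmb8, an immunoproteasome subunit, at -0.35 ± 0.09 and Ugt1a10 at 0.47 ± 0.16. Their adjusted p-values were 0.154, 0.289, 0.278, 0.198 and 0.283. Dimmer probes gave 0.08 ± 0.19 and 0.25 ± 0.12 for Cyp4a31 and 0.11 ± 0.13 for Ugt1a10.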

How the data were processed

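Liver RNA of 10 mice (5 at 6.25 mg/kg and 5 controls) was read on Agilent 2-colour arrays, 1 array per animal, within a study of 19 arrays. The deposited intensity values are the median red and green spot and background intensities which the file headers credit to Feature Extraction 10.7.3.1 and which the authors deposited without normalization. The authors' deposited table of values holds log2 ratios whose normalization is not given in the sources used here, and it served as an alternative.

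Background was corrected by normexp (offset 50) and dye bias within arrays by loess fitted without control spots. Spots flagged as outliers were left out (0.132% of values missing), and repeated spots of a probe were averaged. Probes were kept where the red signal of over 0.5 of their spots was well above background in 4 or more arrays, which left 29415 of 55681. Symbols came from RefSeq accessions (GRCm38.p6 table, 79.9% of accessions matched), and a gene is shown by its brightest kept probe. The number of arrays and animals limits the precision. All differences, p-values and Benjamini-Hochberg adjusted p-values, over all probes, come from limma 3.58.1 (R 4.3.3) with lmFit and eBayes over all 19 arrays, with dose group and slide as fixed terms. On simulated data for 6.25 mg/kg against control, 29415 probes were used. Of changes of 1 on the log2 scale 95% were recovered, and of changes of 2 99%, with 11 false calls. The simulated noise was independent and each change was the same on every treated array. Recovery of changes that are uneven between animals, as for several genes above, was not tested.

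The comparison and the 40 gene lists were chosen with earlier results of these data known. Named genes are the 12 of smallest p higher and the 12 lower, the 3 of smallest p in each list, and all kept AhR and clock members, and others are said to have been chosen after their values were seen. Alternatives covered background, normalization, filter, slide term, channel, prior, weights and each array left out. A few list members count in the totals but their own values are not reported here.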

Additional observations from a re-analysis of the deposited data

Results flagged for a closer look

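Of 130 groups of values with the fitted slide effects removed, 4 held an array far from the rest, and chance alone gives about 1 in 20. Tff3 at 6.25 mg/kg stood at 4.14 in replicate 1 and at 5.09 to 5.37 in the other 4 livers. The mean of the nucleotide excision repair list was -0.68 in control replicate 2 against -0.64 to -0.62 in the other controls. The mean of the neutrophil markers was 0.56 in that same control array against 0.16 to 0.21 in the others. The mean of the erythroid markers was 4.27 in 6.25 mg/kg replicate 4 against 3.90 to 4.00 in the other treated livers. Between doses, the probe in the interval chr10:39659425-39674200 (mm9) was -0.82 at 12.5 relative to 6.25 mg/kg, tested directly (limma adjusted p = 0.0292).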

How the results depend on the processing

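No probe passed an adjusted p under 0.05 at 6.25 mg/kg under any processing alternative except the liver channel alone, with 1 (Tff3). As single arrays of any dose were left out, the number ranged from 0 to 17: 17 without 6.25 mg/kg replicate 2, 3 without 6.25 mg/kg replicate 1, and 1 without control replicate 2 or 12.5 mg/kg replicate 4. Probes at an unadjusted p under 0.05 numbered 1639 without the slide block, against 3446. Between 25 and 6.25 mg/kg the arrays left out gave 0 to 1, with 1 without 6.25 mg/kg replicate 5. Between 12.5 and 6.25 mg/kg they gave 0 to 3. That comparison gave 0 without the slide block, with slide as a random block, without background subtraction, with the deposited table, with the liver channel alone and with a trended robust prior, and 2 with the scanner software's processed signals. Of the named genes' values, 5799 kept their direction and, where tested, their side of the threshold, and 8 kept their direction and came to pass it. Values within single slides carry no test and were judged by direction alone. Another 134, of genes at an unadjusted p of 0.05 or more in the main fit, changed sign. Of genes under that p, 7 values turned sign. In the liver channel alone Serpina1a and Serpina1c stood at 0.01. Within slide 1 Cd3e stood at 0.07, Fabp4 at -0.06, Gstp1 at 0.04 and Gstp2 at 0.07, and within slide 3 Steap4 at -0.06. The cause was not tested. Leaving out each of the 9 arrays of the other doses, 1 at a time, was added after the data were seen. No paired analysis was possible because the replicate numbers only follow the order of deposit and tie no animal of one group to an animal of another. Dim transcripts such as Cyp1a1 and Ahrr gave no level at this signal over background.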

Other observations

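One liver at 6.25 mg/kg, replicate 5 on slide 1, held extreme values in further genes, some in the clock lists (Por, Alas1) and some outside them (Insig2, Slc16a5), set side by side after their values were seen. Insig2 read 0.60 there and 2.45 to 2.92 in the other treated livers, Slc16a5 2.35 and 0.36 to 1.0, Por 2.43 and -0.01 to 0.50, and Alas1 4.76 and 1.27 to 3.31. The same liver did not differ in Cyp1a2 from the controls of its slide, at 6.14 against 6.12 and 5.91. A liver on slide 3, 6.25 mg/kg replicate 1, held the highest Cdkn1a value of the 10, at -0.98, together with the lowest Dbp value of the treated livers, at -0.82.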
